A study of Mus musculus with 6 samples.

Results

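The transcripts described here belong to 27 genes of cholesterol synthesis, uptake and efflux, taken by symbol from a table of 54532 genes measured in cultured mouse brain endothelium. They comprised 18 enzymes of the synthesis pathway, 5 regulators of the sterol-sensing SREBP system and 4 genes of sterol uptake, transport and efflux. All 27 symbols were found once in the table. The cells were primary brain microvascular endothelial cells (BMVECs), which line the capillaries of the brain, from wild-type C57BL/6J mice, and all 6 cultures had been through puromycin, which selects for endothelium rich in efflux pumps. In 3 libraries the cells were untreated, and in 3 they had received processed DEVD mIL-36β, a mouse cytokine of the IL-1 family, at 100 ng/ml for 24 h. The sources used here give no age of the mice and no vehicle or stated time for the untreated cells. Library names end in a number that differs between the groups (24 with IL-36β), which was not taken as a time. There is no word on whether libraries of a group came from separate cultures. Time in culture and IL-36β therefore cannot be told apart, and the p-values measure only the spread between these libraries, which may be technical.

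Cholesterol is built from acetyl-CoA through mevalonate, farnesyl diphosphate, squalene and lanosterol, in steps that take place largely in the endoplasmic reticulum. When sterol is scarce, the escort protein SCAP carries SREBP transcription factors to the Golgi, where they are cleaved and released to raise genes of synthesis and uptake. When sterol is plentiful, INSIG proteins hold SCAP back, and oxysterols activate the LXR receptors, which raise the efflux pumps ABCA1 and ABCG1. The brain makes nearly all of its own cholesterol because lipoproteins hardly cross its endothelium.

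Between 15180389 and 19544689 reads were assigned to genes per library. Levels are in FPKM, reads per kilobase of gene scaled by library, so they can be compared between genes. All 11 endothelial markers stood above 1 FPKM, led by Cdh5 at 865 to 1126 FPKM. Of the markers of other cells, those of smooth muscle were the most abundant, with a sum of 419 to 1396 FPKM in the untreated and 373 to 825 FPKM in the IL-36β libraries, mostly from Acta2. Markers of pericytes summed to 5.99 to 7.16 FPKM in untreated and 4.24 to 7.03 FPKM in IL-36β libraries, those of neurons to 6.80 to 13.7 and 6.90 to 24.3 FPKM (mostly Tubb3, with Snap25 at 0), and those of oligodendrocytes to 9.98 to 11.97 and 11.0 to 16.9 FPKM (mostly Cnp, with Mobp at 0). Astrocyte markers (Aqp4 and Slc1a3 at 0), fibroblast markers, and microglia and macrophage markers summed to at most 2.88 FPKM in any library. The part of these cells in the results was not tested.

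By mean FPKM, the tested cholesterol genes ran from percentile 8.33 (Tm7sf2) to 80.9 (Srebf1) of all tested genes. No difference between the groups passed the main test. None of the 26 members that could be tested passed the threshold of an adjusted p under 0.05 (limma on log2(FPKM + 0.5), Benjamini-Hochberg over 12618 genes), where 0.182% of all tested genes passed. None passed in edgeR on reads recovered from the FPKM (0.274% of genes) or in limma with the library set described below as a term (0.808%). DESeq2 on the same reads called 1 of the 26, Abca1, lower and none higher, where it called 0.698% of genes lower, 1.26% higher and 1.95% in either direction. At an unadjusted p under 0.05 stood 5 of the 26, 3 higher and 2 lower, where 10.4% of all tested genes did (5.96% higher, 4.41% lower). In 8 of the 26, 4 higher and 4 lower, the groups did not overlap, where this held for 16.2% of tested genes (8.95% higher, 7.24% lower). The median log2 fold change of the 26 was 0.04, against 0.00 over all tested genes. In bulk RNA, fewer cells of a type and less RNA per cell cannot be told apart.

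The intervals were narrow enough to bound most of these differences. On the FPKM + 0.5 scale, which understates changes of low genes, the 95% confidence interval of the fold lay between a 2-fold fall and a 2-fold rise in 25 of 26 members, and within 1.5-fold either way in 20 of them (76.9%, against 65.9% of all tested genes). The 6 outside the 1.5-fold bounds were Mvk, Pmvk, Mvd, Cyp51, Abca1 and Abcg1, and Abca1 alone had an interval that reached past a 2-fold fall.

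**Figure D1:**
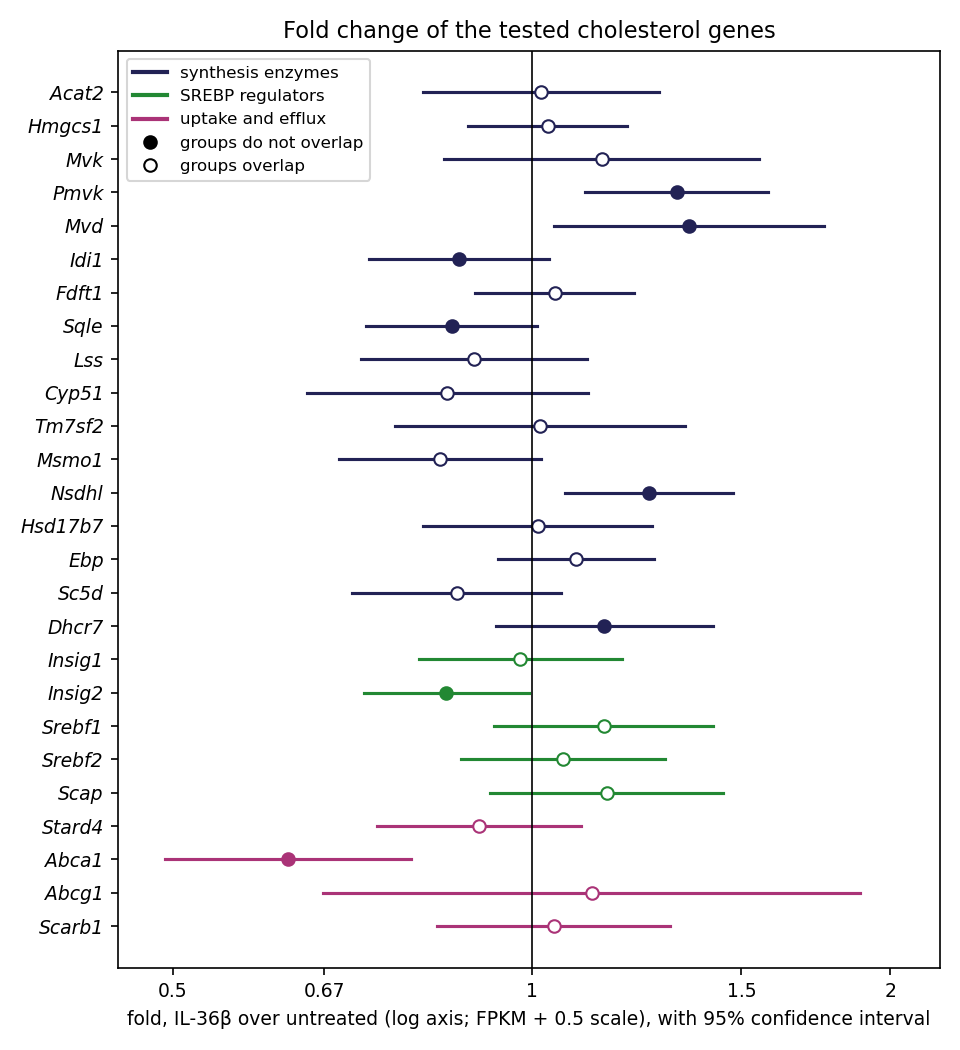
Fold of IL-36β over untreated cells for the 26 tested cholesterol genes (log axis, FPKM + 0.5 scale), with bars for 95% confidence intervals, and filled points where the 3 libraries of a group all lie above or below those of the other. Most intervals cross 1, and Abca1, at 0.624, stands farthest from it.

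The SREBP regulators were on average the most abundant: means of the 5 in either condition ran from 10.2 FPKM for Scap to 22.8 FPKM for Srebf1. Synthesis enzymes were mostly lower, with means in untreated cells from 0.785 FPKM for Tm7sf2 to 11.0 FPKM for Msmo1, leaving Fdps aside. Of the efflux genes, Abcg1 (17.7 FPKM in untreated cells) was well above Abca1 (2.53 FPKM). The length used for Abcg1, 4066 bases, is shorter than its 7298 exonic bases in the GENCODE M21 annotation. Whether this raises its FPKM depends on the bases over which reads were counted, which the sources used here do not give.

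**Figure D2:**
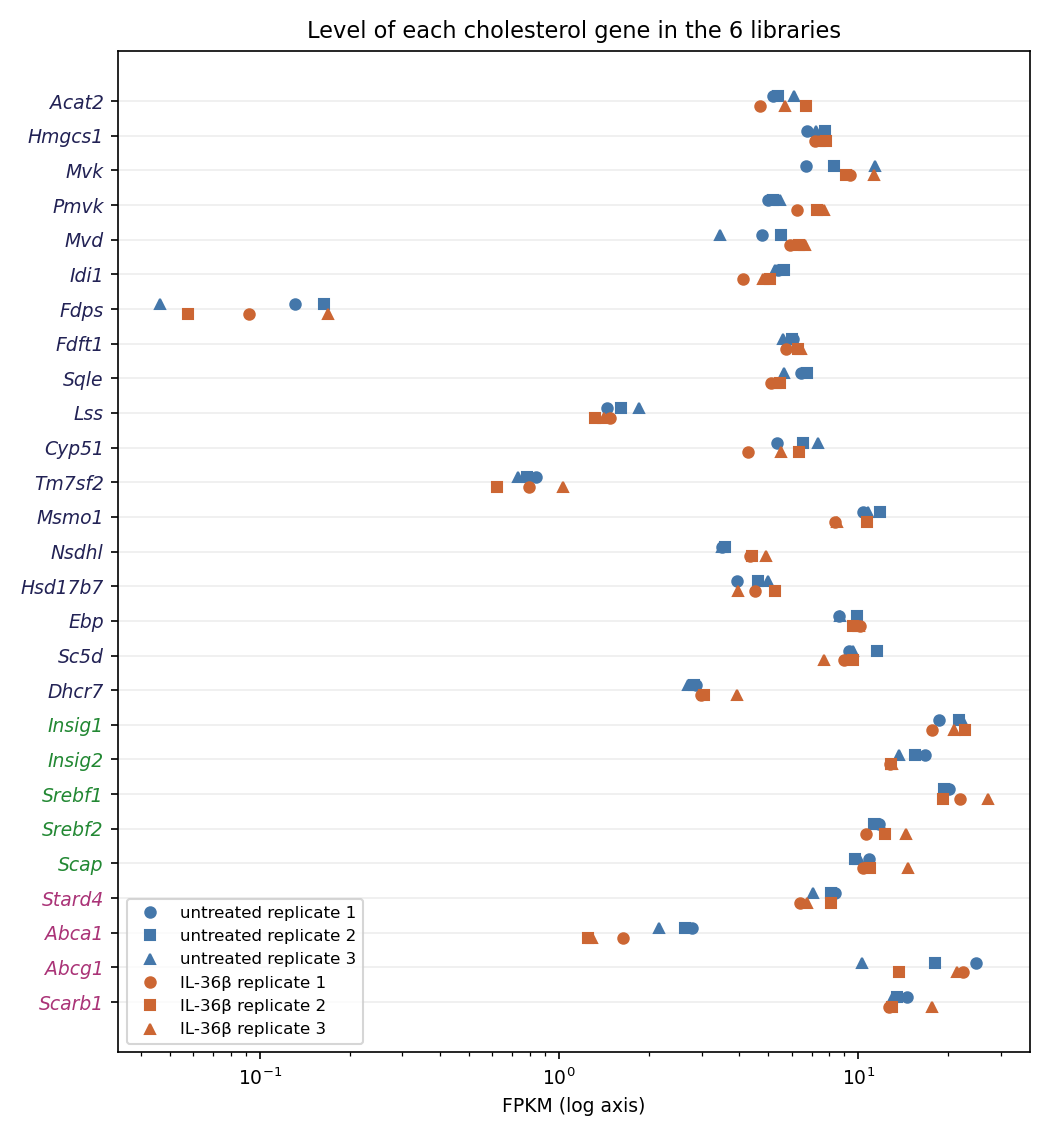
FPKM (log axis) of each of the 27 cholesterol genes in the 3 untreated (blue) and 3 IL-36β libraries (orange), with symbols in dark blue for synthesis enzymes, green for SREBP regulators and purple for uptake and efflux. Fdps lies between 0.0464 and 0.170 FPKM, below every other member, and the colours are apart for 8 genes: Pmvk, Mvd, Nsdhl and Dhcr7, higher with IL-36β, and Idi1, Sqle, Insig2 and Abca1, lower.

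Among the synthesis enzymes, 17 of 18 could be tested, 11 with a fitted fold above 1 and 6 below, and the median log2 fold change was 0.03. The 2 highest folds were of mevalonate branch enzymes. Pmvk, phosphomevalonate kinase (chromosome 3, 89454541 to 89469013, plus strand, GRCm38), was at 5.00, 5.19 and 5.47 FPKM in the untreated and 6.24, 7.31 and 7.70 FPKM in the IL-36β libraries. Every IL-36β library was above every untreated one. The fold was 1.32 (95% confidence interval 1.11 to 1.58; limma adjusted p = 0.275).

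Mvd, the decarboxylase that makes isopentenyl diphosphate (chromosome 8, 122433601 to 122443422, minus strand), was at 4.77, 5.52 and 3.46 FPKM untreated and 5.93, 6.35 and 6.63 FPKM with IL-36β. The groups did not overlap, and untreated replicate 3 was the lowest. Its fold was 1.36 (1.05 to 1.76; limma adjusted p = 0.426), and differed between 2 sets of libraries told apart by the letter in their names, a split that no label calls a batch. It was 1.14 among libraries lettered A or B (untreated replicates 1 and 2, IL-36β replicate 1) and 1.76 among those lettered D or E (untreated replicate 3, IL-36β replicates 2 and 3). Mvd is the 1 member in the authors' deposited table of 660 genes, which lists it as higher with p = 0.0455 and an adjusted p of 0.999 (no gene there has a lower one).

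Idi1, which isomerises isopentenyl diphosphate in the next step, stood the other way. It was at 5.39, 5.63 and 5.29 FPKM untreated and 4.14, 5.08 and 4.80 FPKM with IL-36β, so that each IL-36β library was below all untreated ones. The fold was 0.869 (0.730 to 1.03; limma adjusted p = 0.565). The sign for Idi1 was thus opposite to that for Pmvk and Mvd, and none of the 3 passed the test.

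The entry enzymes were close to even. Hmgcs1, the cytosolic HMG-CoA synthase and a standard SREBP target, was at 6.73, 7.73 and 7.21 FPKM untreated and 7.20, 7.78 and 7.40 FPKM with IL-36β. The groups overlapped, with a fold of 1.03 (0.885 to 1.20). Acat2, which condenses acetyl-CoA, had a fold of 1.02 (0.811 to 1.28), and Mvk, mevalonate kinase, 1.14 (0.845 to 1.55).

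SREBP is known to act at many promoters together with the factor NF-Y, and the promoters were searched for letters of both. RefSeq promoter windows (250 bases before to 50 after the start, GRCm38.p6) were found for 21 of the 27 members. The sterol regulatory element core TCACNCCAC, on either strand, was in the window of Hmgcs1 and of no other of these members, against 1.44% of all 27025 genes with a window. The NF-Y box CCAAT, on either strand, was in windows of 18 of the 21, against 41.1% of all genes. A stretch of Hmgcs1, which holds both, and one of Mvk, which holds only the NF-Y box, are shown for the arrangement of these letters, which are in capitals; no marked matches overlap, and each stretch ends at the base before the start.
Hmgcs1 (chr13:119690171-119690350, plus strand, TCACNCCAC and CCAAT or its complement ATTGG in capitals): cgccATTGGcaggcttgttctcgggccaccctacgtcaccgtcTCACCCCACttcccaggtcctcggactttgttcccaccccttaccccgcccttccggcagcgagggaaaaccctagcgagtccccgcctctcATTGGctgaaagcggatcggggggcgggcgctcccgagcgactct
Mvk (chr5:114444089-114444268, plus strand, CCAAT or ATTGG in capitals): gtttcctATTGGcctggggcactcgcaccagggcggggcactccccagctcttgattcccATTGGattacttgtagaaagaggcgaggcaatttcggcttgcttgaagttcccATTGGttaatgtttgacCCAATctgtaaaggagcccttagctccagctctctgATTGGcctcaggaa
In Mvk the 4 ATTGG matches lie 53 bases apart from one to the next, and 0.271% of all windows hold 5 or more matches of this box, as Mvk does. These matches describe letters and not binding.

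At the squalene steps, Fdft1, squalene synthase, had a fold of 1.05 (0.896 to 1.22). Sqle, squalene epoxidase, which sets the pace of the later pathway, was at 6.43, 6.76 and 5.68 FPKM untreated and 5.14, 5.49 and 5.28 FPKM with IL-36β. All IL-36β libraries were lower than all untreated ones, by a narrow gap. The fold was 0.857 (0.727 to 1.01; limma adjusted p = 0.509). Lss, which closes lanosterol, had a fold of 0.895 (0.719 to 1.11).

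From lanosterol on, folds again lay on both sides of 1. Nsdhl, a dehydrogenase of sterol demethylation (chromosome X, 72918557 to 72958514, plus strand), was at 3.50, 3.60 and 3.51 FPKM untreated and 4.36, 4.41 and 4.93 FPKM with IL-36β. The untreated libraries were nearly identical, and every IL-36β library was higher. The fold was 1.25 (1.07 to 1.47; limma adjusted p = 0.345).

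Dhcr7, the reductase of the last step of the branch through 7-dehydrocholesterol, was at 2.88, 2.83 and 2.71 FPKM untreated and 2.98, 3.06 and 3.94 FPKM with IL-36β. The groups did not overlap, but only IL-36β replicate 3 stood clear of the untreated libraries. Its fold was 1.15 (0.934 to 1.42; limma adjusted p = 0.606).

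The partners of Nsdhl in removing the methyl groups had folds below or near 1. Msmo1, the methyl oxidase and the most abundant enzyme of the list in untreated cells, had a fold of 0.837 (0.689 to 1.02), and Cyp51, the lanosterol demethylase, 0.850 (0.647 to 1.11). Hsd17b7, the keto-reductase, had 1.01 (0.811 to 1.26), and Tm7sf2, a sterol reductase, 1.02 (0.768 to 1.34). The remaining enzymes, the isomerase Ebp and the desaturase Sc5d, had folds of 1.09 (0.936 to 1.27) and 0.865 (0.707 to 1.06). In all of these the groups overlapped, and the fitted folds of the 17 enzymes ran from 0.837 to 1.36.

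Fdps, farnesyl diphosphate synthase, could not be tested, as it was below 0.5 FPKM in all 6 libraries. It had 9, 14 and 3 reads in the untreated and 6, 4 and 13 reads in the IL-36β libraries, while the genes of the steps before and after it, Idi1 and Fdft1, had 225 to 513 reads each. In the GENCODE M21 annotation 26.7% of the exonic bases of Fdps also belong to Gm43738 on the same strand, which is listed at 0 FPKM. The sources used here do not say how reads in shared exons or at several genomic places were counted, so the level of Fdps is uncertain and the part of the annotation in it was not tested. Exons of 3 members are shared with another gene on the same strand (Tm7sf2 shares 12.1% with Vps51, Srebf1 1.17% with Mir6922), exons of 7 overlap a gene on the opposite strand, and 18 members share no exonic base. Fdft1 overlaps the far more abundant Ctsb (216 FPKM) on the opposite strand over 18.3% of its exonic bases, and the sources used here do not say whether strand was used in the counting. The gene length in the deposited table differs from that of GENCODE M21 for Abcg1 (4066 against 7298 bases) and Tm7sf2 (5593 against 4403 bases). Length sets the FPKM level and, through the 0.5 added to FPKM, can also move the limma fold.

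The SREBP regulators, all 5 tested, showed no call in limma, edgeR or DESeq2, and their median log2 fold change was 0.09. That median was -0.023 without IL-36β replicate 3 and 0.19 without IL-36β replicate 1. Insig1, the retention protein whose own gene is raised by SREBP, was at 18.7, 21.7 and 22.3 FPKM untreated and 17.7, 22.7 and 21.0 FPKM with IL-36β. The groups overlapped, with a fold of 0.978 (0.804 to 1.19). Insig2, its relative, was at 16.8, 15.5 and 13.7 FPKM untreated and 12.8, 12.9 and 13.0 FPKM with IL-36β. Its IL-36β libraries lay together just below the lowest untreated library. The fold was 0.848 (0.723 to 0.995; limma adjusted p = 0.467), and it was 0.800 among libraries A and B and 0.945 among D and E.

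Srebf1, which encodes the SREBP isoforms with a larger part in fatty acid synthesis, was at 20.1, 19.4 and 19.3 FPKM untreated and 21.9, 19.3 and 27.2 FPKM with IL-36β. One IL-36β library, replicate 3, was high and another lay just under the untreated ones. The fold was 1.15 (0.930 to 1.42; limma adjusted p = 0.613).

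Srebf2, the main SREBP of cholesterol synthesis (chromosome 15, 82147181 to 82205379, plus strand), was at 11.7, 11.3 and 11.8 FPKM untreated and 10.6, 12.3 and 14.5 FPKM with IL-36β. The IL-36β libraries lay on both sides of the untreated ones. Its fold was 1.06 (0.872 to 1.29), and without IL-36β replicate 3 the log2 fold change was -0.02. Scap, the sterol-sensing escort, had a fold of 1.16 (0.922 to 1.45), again with replicate 3 the highest.

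**Figure D3:**
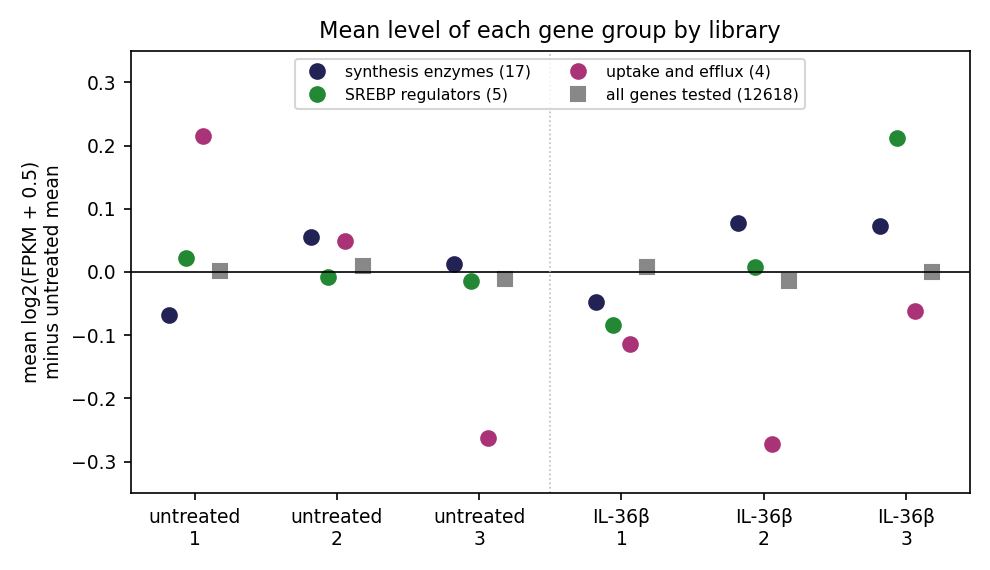
Mean over the tested members of each group of log2(FPKM + 0.5) minus the mean of the untreated libraries, by library, with all 12618 tested genes as grey squares. The SREBP regulators are highest in IL-36β replicate 3 (0.21) and lowest in IL-36β replicate 1 (-0.08), and no group separates treated from untreated libraries.

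The IL-36β libraries also differed among themselves. Replicate 3 held the highest value of the 6 libraries in 10 of the 26 tested members (38.5%, against 25.7% of all tested genes), and replicate 1 the lowest in 10 of them (38.5%, against 19.1%). The mean of the 17 enzymes was -0.05, 0.08 and 0.07 in IL-36β replicates 1 to 3 and -0.07, 0.06 and 0.01 in untreated replicates 1 to 3, on the log2 scale relative to the untreated mean. The enzymes as a group spanned similar ranges in both conditions.

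Within the lettered library sets, each with 3 libraries, no test was made. For members whose groups did not overlap, the choice of the genes itself fixes the sign in both sets, and only the sizes are informative. The fold among A and B and among D and E was 1.21 and 1.34 for Pmvk, 1.20 and 1.29 for Nsdhl, and 1.04 and 1.24 for Dhcr7. It was 0.771 and 0.940 for Idi1 and 0.795 and 0.953 for Sqle, both nearer to 1 in the D and E set. Other members lay on different sides of 1 in the 2 sets, such as Mvk (1.25 and 0.896), Srebf2 (0.924 and 1.12) and Scarb1 (0.912 and 1.15).

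Sterol uptake and efflux held the largest single difference. Abca1, the pump that loads cholesterol and phospholipid on apolipoprotein A-I (chromosome 4, 53030787 to 53159895, minus strand), was at 2.79, 2.64 and 2.16 FPKM in the untreated and 1.64, 1.25 and 1.29 FPKM in the IL-36β libraries. All IL-36β libraries were below all untreated ones, with 719 reads against 1368 in all. The means were 2.53 ± 0.331 and 1.39 ± 0.212 FPKM (SD, n = 3 per group), and the fold was 0.624 (0.492 to 0.792; limma adjusted p = 0.182).

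The call of Abca1 depended on the test. On the recovered reads DESeq2 called it lower, at a fold of 0.551 (DESeq2 adjusted p = 0.00104), edgeR did not (edgeR adjusted p = 0.0781), and the adjusted p ran from 0.000435 to 0.538 over its 26 alternatives. DESeq2 kept the call when any library but untreated replicate 2 was left out (DESeq2 adjusted p = 0.0611 without that one). Within the library sets the fold was 0.664 among A and B and 0.666 among D and E. The authors' deposited table, in which no gene has a p above 0.05, does not hold Abca1.

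The Abca1 promoter is shown because it holds matches to an E-box and to the kind of repeat that LXR binds. The E-box CACGTG was found in windows of 6 of 21 members and 8.09% of all genes, and a loose form of the LXR repeat (GGTNA, any 5 bases, GGTCA), here as its complement, in 2 of 21 members (Srebf1 and Abca1) and 0.226% of all genes. Both motifs were chosen after values were seen, and Srebf1, with a fold of 1.15, lay on the other side of 1 from Abca1. They were searched on both strands, and their matches, in capitals, do not overlap.
Abca1 (chr4:53159896-53160055, minus strand, read along the gene): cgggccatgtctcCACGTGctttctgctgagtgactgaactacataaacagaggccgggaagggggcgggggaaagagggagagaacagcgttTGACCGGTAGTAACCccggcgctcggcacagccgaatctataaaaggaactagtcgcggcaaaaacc

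Abcg1, the LXR-regulated pump that passes cholesterol to HDL, varied widely between libraries. It was at 24.8, 18.1 and 10.3 FPKM untreated and 22.5, 13.7 and 21.4 FPKM with IL-36β. The spread within each group was wider than the gap between their means, and the fold of 1.12 had an interval of 0.668 to 1.89. Without untreated replicate 3, the lowest library, the log2 fold change was -0.17. Whether Abca1 and Abcg1 differ in their response was not tested.

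Scarb1, the HDL receptor SR-BI, which moves cholesterol between cells and HDL, was at 14.5, 13.4 and 13.1 FPKM untreated and 12.7, 13.0 and 17.7 FPKM with IL-36β. The IL-36β libraries lay below and above the untreated ones, with a fold of 1.04 (0.834 to 1.31), and without IL-36β replicate 3 the log2 fold change was -0.09. Stard4, a carrier of sterol between membranes, had a fold of 0.904 (0.742 to 1.10).

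**Figure D4:**
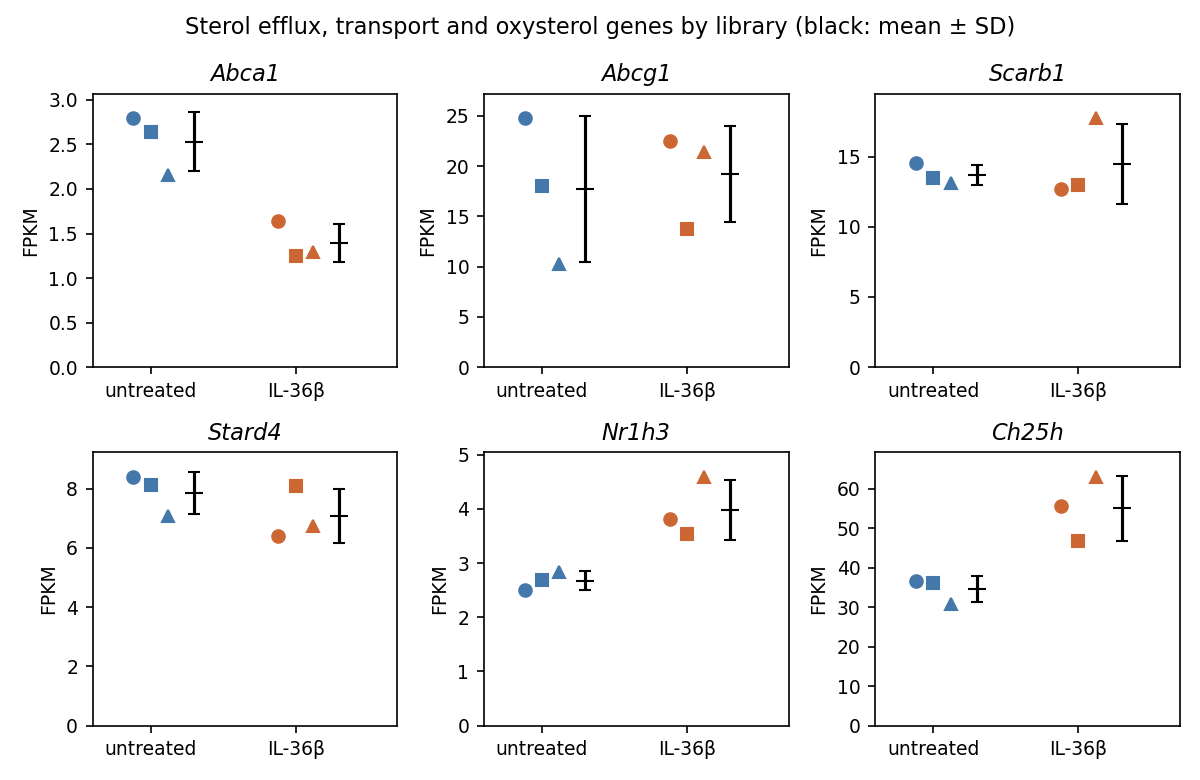
FPKM of 4 sterol transport members (Abca1, Abcg1, Scarb1, Stard4) and of Nr1h3 and Ch25h in untreated (blue) and IL-36β libraries (orange), with circles, squares and triangles for replicates 1, 2 and 3 and black bars for mean ± SD. The groups are apart in Abca1, lower with IL-36β, and in Nr1h3 and Ch25h, higher with IL-36β.

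Other genes of sterol handling gave similarly few calls. Of 33 listed, among them genes of lysosomal release, esterification, SREBP cleavage and oxysterol formation, 32 were tested and none passed in limma or edgeR, with a median log2 fold change of -0.05. At an unadjusted p under 0.05 stood 4 of them (12.5%, against 10.4% of all tested genes). In 7 the groups did not overlap, 2 higher and 5 lower (21.9%, against 16.2% of all tested genes). DESeq2 called 1, Ch25h, which encodes cholesterol 25-hydroxylase, the enzyme of an oxysterol that keeps SREBP in the endoplasmic reticulum and is made by inflamed cells.

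Ch25h (chromosome 19, 34473786 to 34475135, minus strand) was at 36.8, 36.2 and 30.9 FPKM untreated and 55.6, 46.7 and 63.0 FPKM with IL-36β. Every IL-36β library was above every untreated one. The fold was 1.57 (1.27 to 1.95; limma adjusted p = 0.154), and DESeq2 gave 1.60 (DESeq2 adjusted p = 0.00266). Over its 26 alternatives the adjusted p ran from 0.000256 to 0.427, and DESeq2 kept the call without any single library (largest DESeq2 adjusted p = 0.0494, without IL-36β replicate 3). The fold was 1.52 among libraries A and B and 1.74 among D and E. Ch25h, like Abca1, is absent from the authors' deposited table.

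Nr1h3, which encodes the LXRα receptor, was chosen after its values were seen. It was at 2.50, 2.69 and 2.84 FPKM untreated and 3.82, 3.53 and 4.59 FPKM with IL-36β. The groups did not overlap, with a fold of 1.40 (1.15 to 1.72, limma adjusted p = 0.254). In the authors' deposited table Nr1h3 is higher with p = 0.0361 and an adjusted p of 0.999. As for Mvd, whether that comparison used the same libraries was not tested. The difference of Nr1h3 from untreated cells was thus opposite in sign to that of Abca1, an LXR target, and neither passed in limma. It had the same sign as that of LXR-regulated Abcg1 (fold 1.12) and of Srebf1 (1.15), the other member with an LXR repeat match. In both of these the groups overlapped. The other LXR gene, Nr1h2, was more abundant, with means of 23.0 FPKM untreated and 25.8 FPKM with IL-36β. Its groups overlapped, the fold was 1.11 (0.917 to 1.34), and it too was chosen after values were seen.

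Fatty acid synthesis genes that SREBP also controls gave no call. Of 16 listed, 14 were tested with limma and 15 with edgeR and DESeq2, and none passed in these tests. At an unadjusted p under 0.05 stood 2 of the 14, both lower (14.3%, against 10.4% of all tested genes in either direction and 4.41% lower). In 4 the groups did not overlap, 1 higher and 3 lower (28.6%, against 16.2%). Their median log2 fold change was 0.02. The most abundant by the mean over all 6 libraries, the elongase Elovl1 and the citrate lyase Acly, were at 58.4 ± 6.37 and 62.2 ± 4.39 FPKM, and 32.5 ± 1.75 and 33.2 ± 2.87 FPKM, in untreated and IL-36β cells (SD, n = 3 per group).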

How the data were processed

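RNA of 6 BMVEC libraries was prepared with a stranded mRNA kit, per the labels' protocols, and each column was tied to its sample by the library name. Build GRCm38 and the tools DESeq2 1.38.3, featureCounts 1.50-p3, StringTie, HISAT2 2.05 and fastp stand in the submitters' processing notes, with no settings. The authors deposited FPKM for 54532 genes. For 660 genes they deposited log2 fold changes and p-values of their comparison, raw counts, and a signal made from these counts by size factors. A further 8 columns, of 4 libraries matching no sample, were not used here. Whether these 4 libraries entered the authors' comparison was not tested. Its log2 fold changes were 0.40 for Nr1h3, 0.32 for Mvd and 0.37 for Gramd1a, of the other sterol genes. In limma here, on the FPKM + 0.5 scale and so not alike in measure, they were 0.49, 0.44 and 0.23. DESeq2 on the recovered reads gave 0.58 for Nr1h3 and 0.46 for Mvd, and a fold of 1.19 for Gramd1a. Why these differ from the authors' values was not tested.

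FPKM times gene length and a scale per library gave whole reads in 100% of values within 0.01, equal to the deposited counts in all 660 genes. Groups were tested with limma 3.58.1 in R 4.3.3 (trended prior, two-sided) on log2(FPKM + 0.5) for 12618 genes with at least 0.5 FPKM in at least 3 of 6 libraries, without a replicate block. Groups are compared as means ± SD, and folds carry 95% confidence intervals. On simulated reads for this comparison (5 runs, 200 changed genes among 12397 to 12414 tested) it called 62.6% of 2-fold, 94.6% of 4-fold and 0.103% of unchanged genes. At 1 kb, 1 FPKM is 15.4 to 20.3 reads.

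The members and lists were chosen with earlier results of these data known. Values in every library are given for members called in any fit, members whose groups do not overlap and 9 fixed members. Of the other lists, values are given for genes called in any fit or else the 2 most abundant. Nr1h3, Nr1h2, Gramd1a, and the E-box and LXR motifs, were chosen after values were seen. Alternatives were pseudocounts, filters, scalings, a robust prior, edgeR 4.0.16 and DESeq2 1.42.0 on recovered reads, blocks by title number or library letter, a term for the lettered sets A/B and D/E (picked from these values in earlier work) and leaving out each library; 7 DESeq2 alternatives for Abca1 and Ch25h were added after the data were examined. The table of enriched ontology terms was not used here.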

Additional observations from a re-analysis of the deposited data

How the results depend on the processing

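No cholesterol gene was called higher in any of 19 alternatives, and 1, Abca1, was called lower in DESeq2 and in none of the other 18, apart from the added DESeq2 alternatives. The count over all genes, 23, was 269 in DESeq2, 37 in edgeR, 102 with the library set as a term, 15 with TPM scaling, 0 in limma without a filter (1751 of 23998 genes at an unadjusted p under 0.05) and 2 to 8 when a library was left out. With a replicate block it was 13 with the number in the titles and 78 with the letter of the library, and these blocks called no cholesterol gene. Same-numbered libraries had correlations of deviations of 0.21, -0.14 and 0.21. The highest of any pair, 0.39, was between untreated replicate 2 and IL-36β replicate 1, which share neither number nor letter. With deviations taken from means of 3 libraries these values cannot decide the pairing, and the numbers were not taken to pair libraries. The libraries that share a letter, 2 pairs, had correlations of 0.21 (A, a pair that also shares its number) and 0.28 (D). No label says what the letter marks.

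TPM scaling moved the median log2 fold change of all genes to -0.08, and with it the median of the 26 members to -0.041 and of the 17 enzymes to -0.047. The median of the uptake and efflux genes, -0.04, ran from -0.19 (without untreated replicate 3) to 0.0018 when a library was left out. That of the SREBP regulators, 0.09, was -0.025 with the replicate block by library letter and ran from -0.023 (without IL-36β replicate 3) to 0.19 (without IL-36β replicate 1). The sign of the fold change was the same in every alternative for 17 of 26 tested members and changed for 9, all with folds near 1 except Abcg1. For the 8 members whose groups did not overlap, leaving out a library cannot change the sign. Filters, the robust prior and the block by title number leave the fitted fold of any tested member as it was. On the log2 scale TPM scaling turned Acat2 to -0.056, Hmgcs1 to -0.036, Fdft1 to -0.015, Tm7sf2 to -0.047, Hsd17b7 to -0.064, Scarb1 to -0.021 and, outside the members, Acly to -0.057. The library set term turned Acat2 to -0.065, Hsd17b7 to -0.019 and Acly to -0.0012. The replicate block by library letter turned Tm7sf2 to -0.092, Srebf2 to -0.042, Scarb1 to -0.10 and Acly to -0.075, and quantile normalization turned Acly to -0.034. When a library was left out, the ranges of those that changed sign were -0.090 to 0.15 for Acat2, -0.0012 to 0.092 for Hmgcs1, -0.093 to 0.13 for Tm7sf2, -0.078 to 0.11 for Hsd17b7, -0.11 to 0.066 for Insig1, -0.023 to 0.19 for Srebf2, -0.17 to 0.45 for Abcg1, -0.088 to 0.14 for Scarb1 and -0.037 to 0.085 for Acly. The cause was not tested.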
